A study of Oncorhynchus tshawytscha with 15 samples.

Results

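The response of gill tissue in juvenile Chinook salmon (Oncorhynchus tshawytscha) to 18° is described here contig by contig, against controls that stayed at 12°. A contig is a stretch of transcript assembled from the reads without a reference genome. Contigs were included when at least 10 reads had been counted on them in at least 3 of the 6 libraries of these groups. This held for 145790 of the 183740 contigs in the table, and 37950 were left out. At the edge of this filter, 6288 of the included contigs reached 10 reads in exactly 3 libraries, and 6558 of those left out reached it in exactly 2.

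The fish were fall-run juveniles from Merced River Hatchery stock, sampled 5 months after hatching. At 18°, fish spent 3 hr in water of that temperature and then recovered for 1 hr at 12° before the gill arch was taken. The control chambers were handled in the same way but were kept at 12°. RNA of 11 fish was combined in each library, with 3 such pools per temperature, so the 6 libraries stand for 66 fish. Water temperature was the only treatment, and all fish had been raised together at 12° from eggs of 1 hatchery. The experiment was run on 3 consecutive days, each with a pool at every temperature, but the labels do not give the day of a pool. The main test did not pair pools by day. A pool gives an average over its fish and no spread among them, and in whole gill fewer cells of a type and less RNA per cell cannot be told apart. Pools at 15°, 21°, and 25°, again 3 each, complete the series of 15 libraries and are used below only to follow the contigs found at 18°.

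The gill is the organ in which fish take up oxygen, exchange ions, and excrete ammonia, and a single thin epithelium separates its blood from the water. It therefore meets a change of water temperature directly. In animal cells, sudden warming unfolds proteins, and the heat shock transcription factor HSF1 then switches on genes for chaperones, which hold unfolded proteins and help them refold. Such genes are known for steep increases of messenger RNA within hours of warming, whereas most other transcripts change little under mild heat. The contigs in the table carry numbers and neither gene names nor sequences, so no contig below can be assigned to this or any other pathway, and the gill label was not checked against marker genes.

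Contig numbers repeat between 2 sets of names in the table. Contigs of the set named for the simple trimmed assembly are written here with s_ before the name, and the others without it. Of the contigs named below, s_contig_71903 and s_contig_65003 have a number that occurs in both sets. Several contigs can be fragments of 1 transcript, which the table does not show, so contigs that moved alike are not independent measurements.

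Total reads on contigs were 77838763 to 86230206 in the 12° pools and 76805729 to 85698021 in the 18° pools, of which 97.7 to 97.8% were unique to 1 contig. Control pool 1 stood apart from the others. It had 110 contigs with no read, against 7182 to 9407 in the other 5 libraries, and 9667 contigs with exactly 2 reads, against 5254 to 6911. Read counts also differed more between this pool and the other controls (chi-square per degree of freedom of 26.4 and 28.2) than between the other 2 controls (15.7) or among the 18° pools (7.44 to 10.9). No pair of pools agreed within sampling noise, so each was counted as a separate sample. The numbers of calls are therefore given below with and without control pool 1. Levels of a contig are given as CPM, its read count scaled to a common library size by TMM. RPKM, as deposited, divides reads also by contig length and serves here to compare levels between contigs. No correction was made for very short contigs, so their rank by RPKM against long ones is uncertain. The p-values set the difference between groups against the spread between pools, with 3 in each group. The estimate of that spread draws in part on the other contigs tested.

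At 18°, 42 contigs were upregulated and none was downregulated, at an adjusted p-value below 0.01 and a change of over 2-fold (quasi-likelihood test of edgeR, p-values adjusted by Benjamini and Hochberg's method). The upregulated contigs are 0.0288% of those tested and the downregulated ones 0%. The 42 increases ran from 2.1- to 20.2-fold with a median of 3.93-fold, or from 1.07 to 4.34 on the log2 scale, with standard errors of 0.08 to 0.21. Of these, 14 lay between 2- and 3-fold, 13 between 3- and 6-fold, and 15 at 6-fold or more. Over all contigs tested the median log2 fold change was -0.02, and 46.5% of the changes were above 0.

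Without the adjustment for multiple tests, 1243 contigs were more than 2-fold higher at a p-value below 0.05 (0.853% of those tested) and 2318 more than 2-fold lower (1.59%). DESeq2's Wald test, at the same adjusted p-value and fold change, called 301 contigs higher and 128 lower. The excess of lower contigs without adjustment lay below a mean of 1 CPM, with 2127 lower and 981 higher, whereas at 1 CPM or more 191 were lower and 262 higher. In the 2318 lower contigs, the highest control was pool 3 in 1234, pool 2 in 655, and pool 1 in 429. Over all contigs tested it was pool 1 in 38.8%, and the separate shares of pools 2 and 3 were not counted. How far the excess rests on control pool 3 was not tested. Among the 42 contigs with the lowest p-values none was lower. No contig passed the adjusted p-value with a change of less than 2-fold, so the threshold on the fold change removed none.

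**Figure D1:**
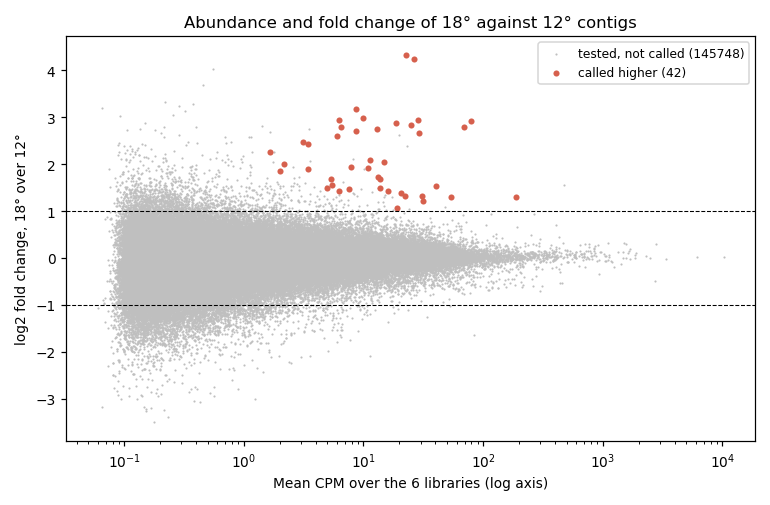
Log2 fold change of 18° over 12° (y axis) against mean CPM over the 6 libraries (x axis, logarithmic) for every contig tested. Gray points are the 145748 contigs that were not called, red points are the 42 upregulated contigs, and dashed lines mark a 2-fold change. The red points lie at log2 fold changes of 1.07 to 4.34, and none lies below a mean of 1 CPM.

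Every 18° pool lay above every 12° pool in all 42 upregulated contigs. In 40 of them the lowest 18° pool was more than 2-fold above the highest control, and in 16 more than 4-fold. The ratio of the lowest 18° pool to the highest control ran from 1.88 to 15.3, with a median of 3.17. Among all contigs tested, 13177 (9.04%) had every 18° pool above every control and 12474 (8.56%) had every 18° pool below. With a gap of more than 2-fold, these shares dropped to 240 contigs (0.165%) above and 191 (0.131%) below. A separation of the pools alone was therefore common in both directions, and a separation of more than 2-fold was rare. Because the call itself used these 6 pools, the separation of the 42 contigs describes them and adds no further test.

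**Figure D2:**
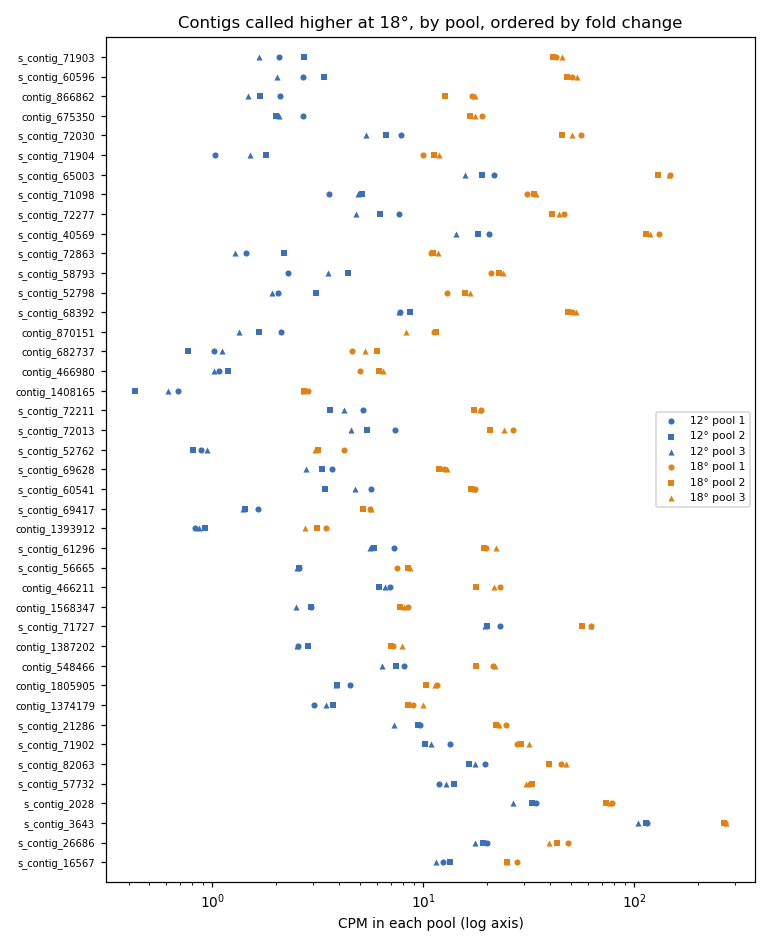
CPM of each upregulated contig (rows, ordered by fold change) in the 3 control pools (blue) and the 3 pools at 18° (orange), on a logarithmic x axis. No blue marker lies to the right of an orange one in the same row, and the ratio of the lowest orange to the highest blue marker is 15.3 in the top row and 1.88 in the bottom row.

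The largest increases were in s_contig_71903 and s_contig_60596, 2 contigs of very different length but nearly the same fold change. Contig s_contig_71903 (255 bp) had 2.06, 2.71, and 1.67 CPM in the 12° pools and 42.4, 41.3, and 45.3 CPM in the 18° pools. Its log2 fold change was 4.34 (SE 0.18, adjusted p = 0.00026, edgeR), a 20.2-fold increase. Contig s_contig_60596 (1707 bp) had 2.7, 3.37, and 2.02 CPM at 12° and 50.9, 47.9, and 53.4 CPM at 18°, a log2 fold change of 4.25 (SE 0.18, adjusted p = 0.00028, edgeR). In both contigs the control pools ranked in the same order, with pool 2 highest and pool 3 lowest, and the 18° pools ranked alike as well. Every 18° pool was at least 14.2-fold above the highest control. On the RPKM scale the shorter contig stood higher, at a mean of 8.87 RPKM at 12° and 177 RPKM at 18° against 1.66 and 31.2 RPKM for the longer one.

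The next group of contigs rose between 6- and 10-fold. Contig s_contig_68392 (1253 bp) had the lowest p-value of all contigs tested, with 7.74, 8.65, and 7.7 CPM in the controls and 50.6, 48.4, and 53.2 CPM at 18°. Its log2 fold change of 2.67 was smaller than those above, but its standard error of 0.09 was among the lowest (adjusted p = 0.000156, edgeR). The pools of each group lay close together in this contig, whereas in s_contig_71903 the controls were spread more widely around their mean.

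Contig s_contig_65003 (553 bp) rose from 21.6, 18.9, and 15.7 CPM in the controls to 148, 130, and 146 CPM (log2 fold change 2.93, SE 0.13, adjusted p = 0.000354, edgeR). Contig s_contig_40569 (480 bp) rose from 20.4, 18.2, and 14.2 to 131, 114, and 119 CPM (log2 fold change 2.80, SE 0.14, adjusted p = 0.000537, edgeR). At 12°, s_contig_72030 (376 bp) had 7.86, 6.66, and 5.34 CPM, and at 18° it had 55.7, 45.5, and 50.6 CPM (log2 fold change 2.95, SE 0.16, adjusted p = 0.000598, edgeR). These 3 contigs shared an order of pools, with control pool 1 the highest control, control pool 3 the lowest, and pool 1 the highest and pool 2 the lowest at 18°. Their mean levels were 268 and 265 RPKM at 18° in s_contig_65003 and s_contig_40569, and 141 RPKM in s_contig_72030.

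Contig s_contig_71098 (562 bp) had 3.57, 5.11, and 4.88 CPM at 12° and 31.1, 33.5, and 34.1 CPM at 18° (log2 fold change 2.88, SE 0.14, adjusted p = 0.000504, edgeR). Its control pool 1 was the lowest of the 3 controls, the reverse of the preceding contigs. The highest adjusted p-value among the 8 largest increases was that of s_contig_71904 (279 bp), with 1.03, 1.8, and 1.51 CPM at 12° and 9.93, 11.2, and 11.8 CPM at 18° (log2 fold change 2.94, SE 0.20, adjusted p = 0.00247, edgeR). Control pool 1 was again the lowest control.

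A further pair of large increases was measured on very short contigs whose reads were mostly shared with other contigs. Contig contig_675350 (164 bp) had 2.7, 2.01, and 2.07 CPM in the controls and 18.9, 16.7, and 17.5 CPM at 18° (log2 fold change 2.98, SE 0.14, adjusted p = 0.000414, edgeR), but only 37.5% of its reads were unique to it. Its log2 fold change on unique reads alone was 3.00. Contig contig_866862 (176 bp) had 2.08, 1.68, and 1.47 CPM at 12° and 17, 12.6, and 17.6 CPM at 18° (log2 fold change 3.19, SE 0.18, adjusted p = 0.00112, edgeR). Just 0.652% of the reads of contig_866862 were unique, too few to test it on unique reads, and the same held for contig_870151 with 0.613%. These contigs share reads with other contigs, so their fold changes are uncertain as values of single contigs. The remaining 39 upregulated contigs had more than 50% unique reads.

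The 4 upregulated contigs with the most reads in the controls had increases of 1.21 to 1.54 on the log2 scale. The fourth had a mean of 19 CPM at 12°. With nearly as many reads, s_contig_65003 (18.7 CPM) and s_contig_40569 (17.6 CPM) rose by 2.93 and 2.80, and another contig (17.9 CPM) by 1.32. Contigs s_contig_57732 (12.9 CPM), s_contig_16567 (12.4 CPM), and s_contig_71902 (11.5 CPM) rose by 1.32, 1.07, and 1.38. Among upregulated contigs with 10 CPM or more at 12°, only s_contig_65003 and s_contig_40569 rose by more than the median of the 42 (1.97). Small increases thus prevailed among upregulated contigs with many reads. Whether s_contig_65003 and s_contig_40569 are fragments of 1 transcript is not known. Contig s_contig_3643 (3206 bp) had the most reads at 12°, with 115, 113, and 104 CPM, and 269, 266, and 271 CPM at 18° (log2 fold change 1.29, SE 0.08, adjusted p = 0.00187, edgeR). Its 3 pools at 18° lay within a few CPM of each other. Contig s_contig_2028 (1570 bp) had 34.1, 32.9, and 26.5 CPM at 12° and 78.5, 73.3, and 76.8 CPM at 18° (log2 fold change 1.30, SE 0.11, adjusted p = 0.00758, edgeR). For s_contig_71727, of only 218 bp, the values were 23.2, 20.1, and 19.5 CPM and 62.1, 56.5, and 62.1 CPM (log2 fold change 1.54, SE 0.10, adjusted p = 0.00187, edgeR). By RPKM this short contig ranked highest of the 42 at 12°, at a mean of 101, against 36.3 for s_contig_3643 and 20.9 for s_contig_2028. The order of the contigs by reads and by level per length therefore differed.

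The upregulated contigs were 160 to 5624 bp long. The 4 longest, s_contig_3643 among them, had increases below the median log2 fold change of the 42 (1.97). Contig s_contig_26686 (5624 bp) had 20.1, 19.2, and 17.5 CPM at 12° and 48.4, 42.9, and 39.2 CPM at 18° (log2 fold change 1.21, SE 0.11, adjusted p = 0.00859, edgeR). Contig s_contig_57732 (4253 bp) had 11.8, 14, and 12.8 CPM and 32, 32.9, and 30.5 CPM (log2 fold change 1.32, SE 0.09, adjusted p = 0.00296, edgeR). In contig_466211 (4081 bp), values of 6.93, 6.14, and 6.6 CPM at 12° stood against 23.1, 17.8, and 21.5 CPM at 18° (log2 fold change 1.68, SE 0.12, adjusted p = 0.0029, edgeR). Per length these 3 contigs lay below the median of the 42 at 12°, at means of 3.54, 3.19, and 1.69 RPKM against 7.07. The median over all contigs tested was 1.75 RPKM. The shortest of the 42, contig_682737 (160 bp), had 1.02, 0.766, and 1.11 CPM at 12° and 4.58, 6.05, and 5.31 CPM at 18° (log2 fold change 2.48, SE 0.19, adjusted p = 0.00403, edgeR). All of its reads were unique.

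The smallest increase that was called was in s_contig_16567 (2624 bp), with 12.4, 13.3, and 11.5 CPM in the controls and 27.7, 25, and 25 CPM at 18° (log2 fold change 1.07, SE 0.10, adjusted p = 0.00859, edgeR). It and s_contig_26686 were the only upregulated contigs whose lowest 18° pool was less than 2-fold above the highest control, at ratios of 1.88 and 1.95.

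The adjusted p-value divided contigs that looked much alike. Just inside it were s_contig_52762, s_contig_60541, and contig_1408165. Contig s_contig_52762 had 0.887, 0.809, and 0.939 CPM at 12° and 4.22, 3.17, and 3.06 CPM at 18° (log2 fold change 2.00, adjusted p = 0.00949, edgeR). Contig s_contig_60541 had 5.67, 3.41, and 4.73 CPM and 17.6, 16.8, and 17.3 CPM (log2 fold change 1.92, adjusted p = 0.00949, edgeR), with controls that varied far more than the 18° pools. Contig contig_1408165 had the lowest CPM of the 42 at 12°, with 0.683, 0.431, and 0.614 CPM from 57, 40, and 51 reads, and 2.84, 2.71, and 2.7 CPM at 18° (log2 fold change 2.27, adjusted p = 0.00911, edgeR).

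Just outside the threshold was s_contig_40548, with 9.54, 8.24, and 7.91 CPM at 12° and 21.1, 19, and 24.4 CPM at 18° (log2 fold change 1.34, adjusted p = 0.0114, edgeR). Contig contig_1341685 had 1.79, 1.08, and 1.29 CPM and 6.32, 5.45, and 5.56 CPM (log2 fold change 2.08, adjusted p = 0.0128, edgeR). In both of these contigs every 18° pool was above every control, by ratios of 1.99 and 3.05, and the separation in contig_1341685 exceeded that in 20 of the 42 contigs that were called. In all, 101 contigs were more than 2-fold higher with an adjusted p-value between 0.01 and 0.05, and all 101 had every 18° pool above every control. Over all contigs tested this held for 9.04%. The 101 contigs were chosen on these same pools, so their separation adds no further test. With library totals in place of TMM, s_contig_52762 no longer passed the threshold (adjusted p = 0.0108, edgeR) and s_contig_40548 did (adjusted p = 0.00725, edgeR).

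In the edgeR fit of all 6 libraries, contigs with few reads were not called. None of the 70685 contigs with a mean below 1 CPM over the 6 libraries was upregulated, although 981 of them were more than 2-fold higher at an unadjusted p-value below 0.05. The share called was 0.0105% between 1 and 3 CPM, 0.0581% between 3 and 10, 0.113% between 10 and 30, 0.127% between 30 and 100, and 0.13% at 100 CPM or more, where it stood for 1 contig of 772. The median standard error of the log2 fold change dropped over the same classes, from 0.463 below 0.3 CPM to 0.199 between 1 and 3 CPM and 0.0994 between 30 and 100 CPM. The last contig called had an unadjusted p-value of 2.73e-06, and at a standard error of 0.463 a 2-fold difference is not detectable at that level. All 42 upregulated contigs had at least 40 reads in every control pool.

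Length varied little between called and other contigs. The 42 contigs had a median length of 664 bp, against 709 bp over all contigs tested, and 9 were shorter than 300 bp, 17 were at least 300 but under 1000 bp, and 16 were at least 1000 bp. Over 6 length classes from under 200 bp to 2000 bp or more, the share called lay between 0.0216 and 0.0397%. By reads, 4 of the 42 had a mean below 1 CPM at 12°, 28 between 1 and 10 CPM, 9 between 10 and 100 CPM, and 1 above. Their median level at 12° was 4.2 CPM and 7.07 RPKM, against 1.1 CPM and 1.75 RPKM over all contigs tested. The pools of the 42 also varied less than those of a typical contig, with a median coefficient of variation of 14.7% over the controls and 6.48% over the 18° pools, against 20 and 14.5% over all contigs tested. The call itself favors a small spread between pools. The 42 also had more reads than a typical contig, with a median of 20.4 CPM at 18° against 1.06 CPM, and the spreads were not matched for reads. How far either bears on the difference in spread was not tested. Of the 42, 29 carried a name of the simple trimmed set, which makes up 47502 of the contigs tested.

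The highest value at 18° was in pool 1 for 19 contigs, in pool 3 for 20, and in pool 2 for 3. Among the controls, pool 1 was the highest in 25 contigs and pool 3 the lowest in 27. Control pool 1 was the lowest in 6. Over all contigs tested, control pool 1 was the highest control in 38.8% and the lowest in 38.7%, control pool 3 was the lowest in 34.4%, and pool 2 was the highest at 18° in 36.6%. The 42 contigs were chosen on these pools, and no test of these counts was made.

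No contig was downregulated at the threshold, and the lower contigs nearest to it were few. In all, 21 contigs were more than 2-fold lower with an adjusted p-value between 0.01 and 0.05 (edgeR), and in all 21 every 18° pool was below every control. Over all contigs tested this held for 8.56%. The 21 contigs were chosen on these same pools, so their separation adds no further test. The lowest p-value among them was that of contig_1376139 (1128 bp), with 1.56, 1.26, and 1.26 CPM at 12° from 130, 117, and 105 reads, and 0.214, 0.272, and 0.176 CPM at 18° from 18, 25, and 14 reads. Its log2 fold change was -2.60 (SE 0.25, adjusted p = 0.0137, edgeR), which in size exceeds 27 of the 42 increases that were called.

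Contig s_contig_55552 (872 bp) had 12.9, 16.3, and 16 CPM at 12° and 6.99, 6.23, and 5.92 CPM at 18° (log2 fold change -1.23, SE 0.12, adjusted p = 0.0175, edgeR). Contig contig_1415847 (572 bp) had 12.7, 15.4, and 14.2 CPM and 6.23, 6.71, and 5.3 CPM (log2 fold change -1.20, SE 0.13, adjusted p = 0.019, edgeR). In both, control pool 1 was the lowest control, and without it the contigs passed the threshold, at adjusted p = 0.00208 and 0.00486 (edgeR). Contig contig_1376139 passed without control pool 1 as well, at adjusted p = 0.00894 (edgeR). The fourth contig, s_contig_43655 (2304 bp), had very even pools, with 5.32, 5.6, and 5.31 CPM at 12° and 2.4, 2.32, and 2.61 CPM at 18° (log2 fold change -1.13, SE 0.12, adjusted p = 0.0196, edgeR), and did not pass without that pool either (adjusted p = 0.0115).

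**Figure D3:**
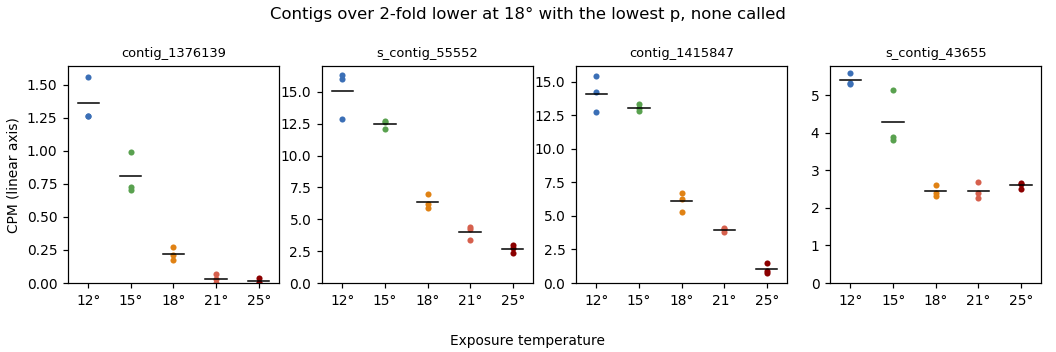
CPM in each pool (points) and mean of the 3 pools (lines) at all 5 temperatures for the 4 contigs with the lowest p-values among those more than 2-fold lower at 18°, on linear axes that start at 0. In each panel the 3 points at 18° lie below the 3 at 12°, and in s_contig_43655 the means at 18°, 21°, and 25° are close together at 2.44, 2.45, and 2.6 CPM.

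The libraries at 15°, 21°, and 25° had no part in choosing the 42 contigs, and they show the same contigs at other temperatures. Reads on the 42 contigs made up 0.0418, 0.0422, and 0.0376% of all reads in the 12° pools, 0.0498, 0.0495, and 0.052% at 15°, and 0.154, 0.148, and 0.152% at 18°. At 21° they made up 0.616, 0.632, and 0.567%, and at 25° 3.44, 3.4, and 2.91%. The share thus was highest at 25° and the groups did not overlap at any of these steps. The contigs were chosen as low at 12° and high at 18°, so the steps that involve those libraries are partly set by the choice, whereas those among 15°, 21°, and 25° are not.

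A test on libraries that share none with 18° or 12° was made by comparing 21° with 15°. Of 141318 contigs tested, 703 (0.497%) were higher at 21° and 40 (0.0283%) lower (quasi-likelihood test of edgeR, p-values adjusted by Benjamini and Hochberg's method). All 42 contigs were among those higher at 21°, with log2 fold changes from 1.51 to 6.81 (median 3.29) and adjusted p-values from 1.54e-07 to 0.0053. In each of the 42, every 21° pool lay above every 15° pool. The call on these pools favors such a separation, and its share over all contigs was not counted, so it adds no further test. Between 25° and 15°, 13131 of 138628 contigs (9.47%) were higher and 9478 (6.84%) lower, and the 42 were again all higher, with log2 fold changes from 1.32 to 9.50 (median 4.79). These 2 comparisons share the 15° libraries and are not independent of each other. Part of the fish at 25° died or stopped responding in the warm water and were sampled early.

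The contigs differed in how far they rose beyond 18°. In 39 of the 42, every 25° pool lay above every 21° pool, and in none did every 25° pool lie below. The share of all contigs with such a separation was not counted, so these numbers describe the 42 only. The ratio of the mean at 25° to the mean at 21° was over 10 in 9 contigs, 5 to 10 in 10, 2 to 5 in 15, and under 2 in 8, with a range from 0.859 to 13. Contigs with similar increases at 18° separated here. Contig s_contig_68392 reached 320 ± 38.6 CPM at 21° and 3510 ± 827 CPM at 25° (mean ± SD, n = 3), and s_contig_71098 reached 179 ± 16.6 and 1990 ± 382 CPM. By contrast, s_contig_65003 reached 351 ± 60.7 CPM at 21° and 945 ± 58.5 CPM at 25°. The log2 fold change at 18° was 2.67, 2.88, and 2.93 in these 3 contigs, and between 25° and 15° it was 8.34, 8.32, and 4.86, with standard errors of 0.25, 0.22, and 0.13.

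Contigs s_contig_72030 and s_contig_40569 followed s_contig_65003. Their ratios of the 25° to the 21° mean were 2.86 and 2.64, beside 2.69 for s_contig_65003, and those of the short contigs contig_675350 and contig_866862 were 2.2 and 2.56. In s_contig_71904 and contig_682737 the ratios were 12.8 and 13. The latter was the largest among the 42, in a contig with 0.806, 0.733, and 1.01 CPM in the 15° pools, 31.2, 31.9, and 36.6 CPM at 21°, and 507, 450, and 336 CPM at 25°. Contigs with like fold changes at 18° thus took different courses above it.

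In 3 contigs the 25° pools overlapped the 21° pools, and these are named because of that. Contig s_contig_56665 had 2.58, 2.58, and 2.53 CPM at 12°, 7.47, 8.45, and 8.65 CPM at 18°, 11.7, 10.3, and 12.1 CPM at 21°, and 10.1, 8.58, and 10.6 CPM at 25°. Contig contig_1393912 had 0.827, 0.917, and 0.867 CPM at 12°, 3.47, 3.14, and 2.74 CPM at 18°, 6.58, 5.93, and 5.86 CPM at 21°, and 5.21, 5.37, and 7.3 CPM at 25°. In s_contig_72013 the values were 7.33, 5.41, and 4.56 CPM at 12°, 26.5, 20.6, and 24 CPM at 18°, 49.5, 50.5, and 38.5 CPM at 21°, and 45.3, 49.8, and 59.4 CPM at 25°. The mean at 25° was below that at 21° in the first and second of these contigs and above it in s_contig_72013.

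The 4 upregulated contigs with the most reads at 12° were not alike at higher temperatures. Contig s_contig_3643 had 110, 117, and 124 CPM in the 15° pools, 1390, 1410, and 1170 CPM at 21°, and 9120, 9460, and 7880 CPM at 25°. Between 21° and 15° its log2 fold change was 3.51 (adjusted p = 9.42e-07, edgeR), and for s_contig_71727 and s_contig_2028 it was 3.99 and 3.45 (adjusted p = 6.3e-07 and 9.42e-07, edgeR). For s_contig_26686 it was 1.68 (adjusted p = 4.94e-05, edgeR), below the median of the 42. At 15°, the values of s_contig_3643 lay close to its controls, which had 115, 113, and 104 CPM. In s_contig_71903 and s_contig_60596, by comparison, the 15° pools had 3.14, 4.14, and 3.32 CPM and 3.8, 4.32, and 4.22 CPM, above the 12° pools of the same contigs without overlap. The 12° libraries also served to choose these contigs, and no test of 15° against 12° is given.

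**Figure D4:**
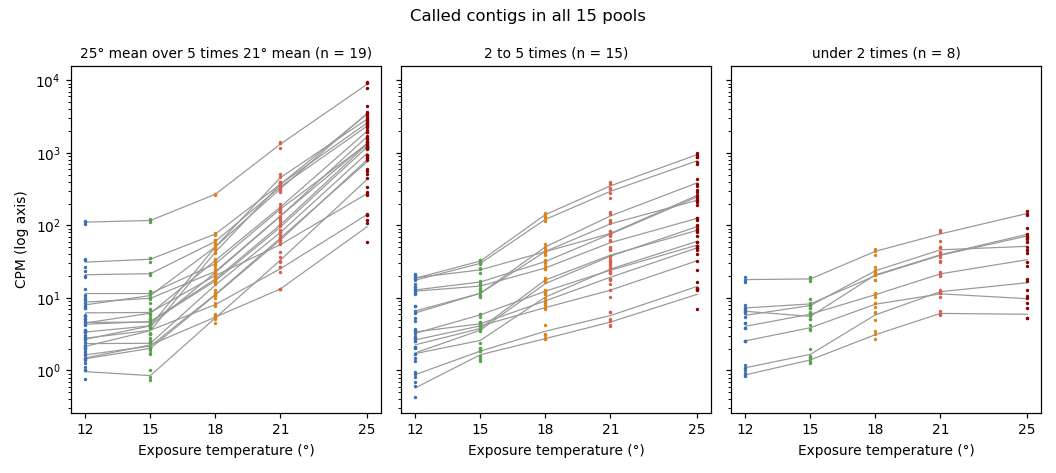
CPM (y axis, logarithmic) of the 42 upregulated contigs in all 15 pools against exposure temperature. Points are pools and lines join the means of 3 pools, in panels by the ratio of the 25° mean to the 21° mean, over 5 (19 contigs), 2 to 5 (15 contigs), and under 2 (8 contigs). All lines rise from 15° to 21°, and in the right panel the step from 21° to 25° is a ratio of 0.859 at the lowest and under 2 throughout.

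The contigs just inside the threshold at 18° were not alike in the other libraries. Contig contig_1408165 had a log2 fold change of 1.51 between 21° and 15° (adjusted p = 0.00167, edgeR) and s_contig_52762 one of 1.65 (adjusted p = 0.0053, edgeR), the smallest and the fourth smallest of the 42. Contig s_contig_60541 had a log2 fold change of 4.36 (adjusted p = 6.8e-07, edgeR) and reached 1200 ± 59.1 CPM at 25° (mean ± SD, n = 3). Just outside the threshold, s_contig_40548 and contig_1341685 had log2 fold changes of 2.09 and 2.78 between 21° and 15° (adjusted p = 0.000124 and 3.33e-05, edgeR), above those of some contigs inside it.

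Among the 101 contigs between 2 adjusted p-values, 0.01 and 0.05, 81 (80.2%) were higher at 21° than at 15°, against 0.497% of all contigs tested there. Of the 259 contigs called higher at 18° by DESeq2 and not by edgeR, 151 (58.3%) were, with a median log2 fold change of 1.67 between 21° and 15°. Of the 1100 with an unadjusted p-value below 0.05 and an adjusted p-value of 0.05 or more, 1031 could be tested and 97 (9.41%) were. By edgeR's adjusted p-value at 18°, the share found higher in these separate libraries was thus smaller in the set at 0.05 or more. These sets were not matched for reads. Of the 1243 contigs more than 2-fold higher at an unadjusted p-value below 0.05 (edgeR), 981 had a mean below 1 CPM, where no contig was called at 18°. How much of the difference between the shares came from read depth was not tested. The contigs called by DESeq2 alone are not a separate set, since s_contig_40548 and contig_1341685 belong to it and to the 101.

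For lower contigs the same shares were smaller. Of the 21 contigs with adjusted p-values between 0.01 and 0.05, 20 could be tested between 21° and 15° and 8 (40%) were lower there, against 0.0283% of all contigs tested. Contigs s_contig_55552 and contig_1415847 were among them, with log2 fold changes of -1.63 and -1.71 (adjusted p = 0.000229 and 6.15e-05, edgeR). Contig contig_1376139 was lower too, with 0.704, 0.988, and 0.727 CPM at 15° and 0.0312, 0.0648, and 0 CPM at 21° (adjusted p = 0.00768, edgeR). The limit that 3 reads set was 0.0387 to 0.0476 CPM in the 21° libraries. Pools 1 and 3 at 21° lay below it and pool 2 above, so the size of this fall is uncertain. Contig s_contig_43655 was not called, with a log2 fold change of -0.79 (adjusted p = 0.0612, edgeR). Of the 128 contigs called lower by DESeq2 alone, 14 (10.9%) were lower between 21° and 15°, and of the 2297 with an unadjusted p-value only, 8 of the 1803 that could be tested (0.444%) were. Of the 2318 contigs more than 2-fold lower at an unadjusted p-value below 0.05 (edgeR), 2127 had a mean below 1 CPM. A further fall from that level leaves few reads to test. How much this lowered the shares was not tested.

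The number of calls at 18° changed with every library that was left out. Without control pool 1, 94 contigs were upregulated and 16 downregulated, and all 42 were kept among the 94. Without control pool 2 the number upregulated was 8 and without control pool 3 it was 12. Leaving out pool 1, 2, or 3 at 18° gave 9, 11, and 4 contigs, and no contig was downregulated in any of these 5 fits. Each such fit compares 2 pools with 3, and how much of the change came from having fewer pools was not tested. The common biological coefficient of variation, edgeR's measure of the spread between pools, was 0.175 without control pool 1 and 0.226 with all 6 libraries. What set control pool 1 apart was not tested. Of the 52 further contigs upregulated without it, 44 were higher between 21° and 15°, and of the 16 downregulated, 8 were lower there. Of all contigs tested between 21° and 15°, 0.497% were higher and 0.0283% lower.

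Of the 42 contigs, 4 were upregulated whichever library was left out, namely s_contig_68392, s_contig_71903, s_contig_60596, and s_contig_65003. A further 12 were called in at least 2 of these 6 fits, and 26 only without control pool 1. The range of the log2 fold changes over the 42 was 1.07 to 4.34 with all libraries and 1.08 to 4.31 without control pool 1. The medians were 1.97 and 2.07. Single contigs moved to different degrees. Over the 6 fits, s_contig_71904 ran from 2.75 to 3.13 and s_contig_60541 from 1.74 to 2.1, whereas s_contig_68392 ran from 2.64 to 2.73. On unique reads, 41 contigs were upregulated, not all of them among the 42. Contigs contig_866862 and contig_870151 could not be tested on unique reads, and s_contig_40548 passed newly (adjusted p = 0.00985, edgeR).

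**Figure D5:**
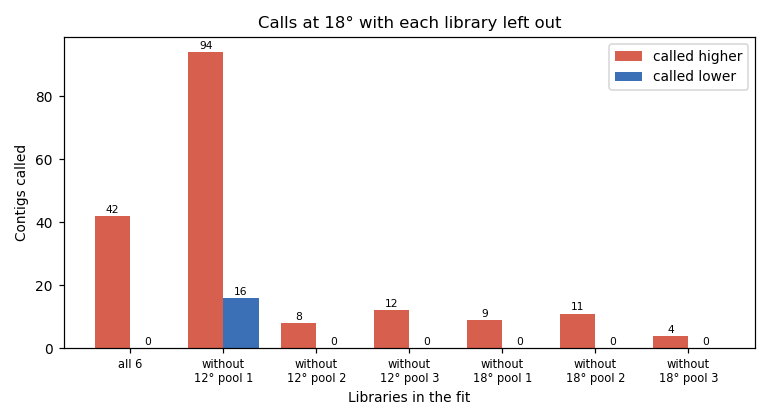
Number of contigs upregulated (red bars) and downregulated (blue bars) at 18° with all 6 libraries and with each library left out in turn, with the number above each bar and the y axis from 0. The counts run from 4 to 94 upregulated, and of these fits only that without control pool 1 had downregulated contigs, 16 in number.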

How the data were processed

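Gill RNA of juvenile Chinook salmon was sequenced in 15 libraries, each a pool of RNA from 11 fish, with 3 pools at each of 5 temperatures. Pools were grouped by the temperature in their labels. The authors trimmed the reads, assembled contigs from the pooled reads, and aligned the reads back to the contigs in CLC Genome Workbench. The read counts deposited by the authors are raw whole numbers for each contig and library, in one column of all reads and another of reads unique to the contig. RPKM values were deposited by the authors and divide the reads by the length of the contig and by the library's reads. The deposited table also holds the authors' fold changes and p-values from Baggerly's test, which were not used. Of its 98 columns, 51 were not used, these included.

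A contig entered the test with 10 or more total reads in 3 or more of the 6 libraries. The test was made with edgeR (version 4.0.16, R 4.3.3, limma 3.58.1), by TMM normalization, glmQLFit, and glmQLFTest with no block and a trended dispersion. A call needed an adjusted p-value (Benjamini-Hochberg, over all contigs tested) below 0.01 and a change of over 2-fold, the threshold of the study's methods. A count test was used in place of the study's test on proportions. Each standard error was obtained by dividing the log2 fold change by the root of its F value. CPM values were scaled by TMM over all 15 libraries, and fold changes by TMM over the 6 libraries of the fit. The comparisons of 21° and 25° with 15° used the same filter, test, and threshold on their own 6 libraries. DESeq2 (version 1.42.0) was run as an alternative. Figures were drawn with Python 3.11.15, pandas 2.3.3, and matplotlib 3.10.9. The procedure was also run on data simulated with the spread of the control pools. Those data held no change as small as the smallest increases called here, and no result above rests on them.

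The comparison, the tests, and the rule for naming contigs were chosen with earlier results of these data known. Named were the 8 upregulated contigs with the largest increase, the 8 with the lowest p-value, the 4 with the highest mean CPM at 12°, the 4 longest, the 2 shortest, the 3 with the highest adjusted p-value, the 2 with the smallest increase, the 3 contigs over 2-fold changed that came nearest to the threshold from outside, and, since none was downregulated, the 4 contigs over 2-fold lower with the lowest p-values. The alternatives were other scalings, DESeq2, unique reads, each library left out, the replicate number as a block, 3 other filters, contigs of at least 300 bp, a fit of all 15 libraries, other thresholds, and a ratio of mean RPKM for the contigs named. Depth was 76805729 to 86230206 reads per library at 12° and 18°, where 3 reads stand for 0.0348 to 0.0391 CPM. PCR duplicates are not marked in the counts, so this limit covers counting error only.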

Additional observations from a re-analysis of the deposited data

How the results depend on the processing

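The 42 contigs upregulated at 18° became 301 with DESeq2's Wald test, 206 in a fit of all 15 libraries, 143 at an adjusted p-value below 0.05, 246 below 0.10, and 729 at an unadjusted p-value below 0.01, and the 0 downregulated became 128, 20, 21, 79, and 792. Without the filter on low reads 1 contig was downregulated. With each library left out, 4 to 94 contigs were upregulated and 0 to 16 downregulated, the highest number of each without control pool 1. Under DESeq2's size factors, library totals, unique reads, the other filters, contigs of at least 300 bp, and any fold change, the number upregulated lay between 33 and 52. Deviations of same-numbered 12° and 18° pools from their group means correlated at 0.554, 0.354, and -0.158 over 75105 contigs. Deviations from a mean of 3 pools depend on each other, so these values cannot decide whether the numbers pair the pools. The main test did not pair them. Control pool 3 correlated best with pool 2 at 18° (0.617). With the replicate number as a block, 41 contigs were upregulated, 35 of them among the 42, and 0 were downregulated. The common biological coefficient of variation was 0.191 with this block and 0.226 without it. Among the contigs next to the threshold, s_contig_52762 and contig_1408165 (adjusted p = 0.0126 in both, edgeR) then fell outside it and contig_1341685 (0.00588) inside. All 42 contigs were higher at 21° than at 15° and at 25° than at 15° in the main fits, and 39 to 42 and 41 to 42 were so under the alternatives. Of 350 values of named contigs under the alternatives, none changed direction. Of the 323 of these with a test, 232 stayed on the same side of the threshold, 20 passed it newly, and 71 no longer passed it, of which 67 were with a library left out. The cause of these changes was not tested. In the fit reported, no contig below a mean of 1 CPM was called, but contig_1376139 at 1.36 and 0.221 CPM was without control pool 1.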
